A study of Homo sapiens with 6 samples.

Results

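The genes described here make cholesterol and fatty acids. The list holds 37 genes, 20 of the sterol branch and 17 of the fatty acid branch, and its members are the probe sets on the array whose single gene symbol in the platform annotation is on that list. These were 63 probe sets of 31 genes, out of 19065 probe sets of 11963 genes that had 1 symbol. The other 6 listed genes gave no value. CYP51A1, FADS1 and ELOVL1 were read only by 7 probe sets that carry several symbols, and FDFT1, ACSL3 and THRSP are not analysed here. Of the 31 genes, 20 had several probe sets and 11 had 1. Probe sets of a gene read the same RNA and are not replicates.

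Both branches begin with acetyl-CoA in the cytosol. In the sterol branch it is built up through mevalonate and squalene to lanosterol, which is trimmed to cholesterol. In the other branch it is carboxylated, polymerised to palmitate, and then elongated and desaturated. The transcription factors SREBP-2 (gene SREBF2), chiefly for sterol genes, and SREBP-1 (gene SREBF1), chiefly for fatty acid genes, switch the pathways on, and INSIG proteins hold them back in the endoplasmic reticulum membrane when sterols are plentiful. Breast cancer cells often make much of their own fatty acid.

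Expression was read on 6 arrays, 3 from SUM44 and 3 from LCCTam. SUM44 is a human breast cancer line of invasive lobular origin, labelled estrogen and progesterone receptor positive and sampled at passages 74, 75 and 76 in SFIH medium on a Ham's F12 base. LCCTam is its tamoxifen-resistant variant, sampled at passages 8, 9 and 10 in the same medium with 500 nM 4-hydroxytamoxifen, the active metabolite of tamoxifen. Every LCCTam sample was grown with the drug and every SUM44 sample without it, so resistance and exposure cannot be told apart. LCCTam is 1 derived line. The labels do not describe the passages as independent cultures, so a p-value here reflects only how far these samples spread, which may be technical. In bulk RNA, fewer cells of a type and less RNA per cell cannot be told apart.

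The values are the deposited log2 RMA levels, and a difference is LCCTam minus SUM44 on that scale, so that 1 stands for a 2-fold change. A probe set counts as called at an adjusted p under 0.05 in limma across all 19065 probe sets (Benjamini-Hochberg); the 95% intervals given come from the same fit and are not adjusted. Over all probe sets, 1.72% were called higher and 5.65% lower in LCCTam, 7.37% in either direction. Lower calls made up 76.7% of all calls, and 57% after quantile normalization of the deposited values. The lines were without overlap in 29.6%, 13% higher and 16.6% lower. The 7 luminal breast epithelial markers (EPCAM, KRT8, KRT18, KRT19, GATA3, FOXA1 and XBP1) all lay above the 75th percentile of the levels and 0 of 7 were called. Of 6 adipocyte, 4 leukocyte, 3 endothelial and 7 fibroblast markers, the fibroblast gene COL3A1 alone had a line mean above that level. Its brightest probe set read 8.23, 8.74 and 8.96 in SUM44 and 3.98, 4.32 and 4.36 in LCCTam (adjusted p = 0.000261). The summed adipocyte markers were at 7.76 to 7.89 in SUM44 and 7.96 to 8.00 in LCCTam, 4 of the 6 lay below the 25th percentile, and 0 were called. The summed fibroblast markers were at 9.33 to 9.70 in SUM44 and at 8.48 to 8.51 in LCCTam, and COL3A1 was the 1 gene of the 7 called lower; the part of this in the lipid results was not tested. The LCCTam array of passage 10 stood apart in its RNA quality controls. The 3' end of actin exceeded the 5' end by 1.92 there and by 0.90 to 1.15 elsewhere. Its 75th percentile of expression was 7.55, against 7.74 to 7.84 on the other arrays. Results are therefore given with and without it where it matters.

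The genes called in the sterol branch were all lower in LCCTam, and 2 of the 3 called in the fatty acid branch were higher. In the sterol branch 0 of 34 probe sets rose and 3 fell (HMGCS1, MSMO1 and HSD17B7), 8.82% against the background of 7.37%. In the fatty acid branch 2 of 29 rose (SREBF1 and FASN) and 1 fell (ELOVL5), 10.3%. With 1 probe set per gene, the brightest, the same 6 genes were called, 16.7% of the sterol genes and 23.1% of the fatty acid genes against 7.92% of all genes. Counted in either direction, the probe set shares lie near their background and the gene shares above theirs, over 3 called genes in each branch. By direction, 1.72% of all probe sets were called higher and 5.65% lower. Nothing particular to the lists is read from the counts. The median difference was -0.20 for the sterol probe sets and 0.06 for the fatty acid probe sets, against 0.013 for all probe sets. After quantile normalization these medians were -0.11, 0.11 and 0.036. Differences were negative for 23 of 34 sterol probe sets and 12 of 29 fatty acid probe sets, where 47.2% of all probe sets were negative and 52.8% positive. At an unadjusted p under 0.05, 0 sterol probe sets were higher and 11 lower, and 6 fatty acid probe sets were higher and 2 lower, where 8.01% of all probe sets were higher and 14.7% lower. Line values did not overlap for 13 sterol probe sets, all lower, and for 6 fatty acid probe sets, 4 of them higher. Over all probe sets 29.6% did not overlap, 13% higher and 16.6% lower. Without the passage 10 array the sterol median was -0.06, with 0 higher and 6 lower, and in the fatty acid branch 6 were higher and 1 lower, where 11.7% of all probe sets were called, 4.6% higher and 7.14% lower.

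**Figure D1:**
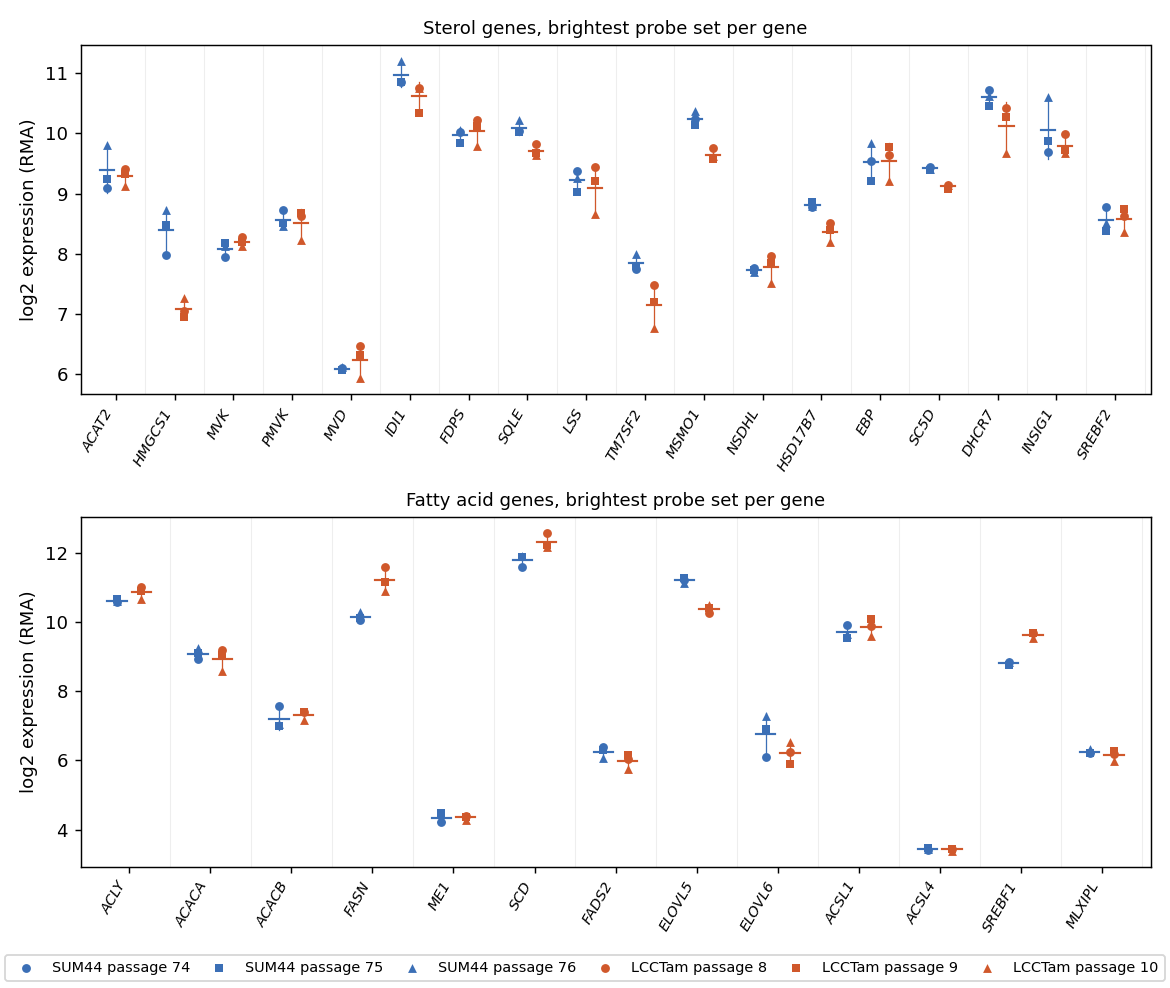
Log2 expression (RMA, vertical axis) of the brightest probe set of each of 18 sterol genes (top) and 13 fatty acid genes (bottom) in pathway order, with SUM44 in blue and LCCTam in orange. Symbols mark the passages, horizontal bars the means and vertical bars 1 SD (n = 3 per line). Levels compare between lines within a gene, not between genes. Among the called genes, the LCCTam points of HMGCS1, MSMO1, HSD17B7 and ELOVL5 lie below, and those of SREBF1 and FASN above, the SUM44 points. Some genes that were not called, such as SQLE and SCD, are also without overlap.

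At the entry to the mevalonate pathway, HMGCS1 was the sterol gene with the largest difference. HMGCS1 encodes the cytosolic synthase that makes HMG-CoA, the precursor of mevalonate. Its brighter probe set read 7.98, 8.48 and 8.72 in SUM44 passages 74 to 76 and 7.05, 6.95 and 7.26 in LCCTam passages 8 to 10. All LCCTam values lay below all SUM44 values, with the lowest SUM44 value at passage 74. The means were 8.39 ± 0.38 and 7.08 ± 0.16 (SD, n = 3 each), which differ by -1.31 (SE 0.19, limma adjusted p = 0.0113), and LCCTam was 2.47-fold lower. The other probe set read 6.01, 6.63 and 7.49 in SUM44 and 5.52, 5.54 and 5.35 in LCCTam. It had nearly the same difference, -1.24, and no overlap, but it was not called (adjusted p = 0.0738), and its SUM44 values spread over 1.48. It was called when SUM44 passage 74 was left out (-1.59, adjusted p = 0.022). The call of the brighter probe set was lost without SUM44 passage 75 (-1.26, adjusted p = 0.069) and without LCCTam passage 8 (-1.29, adjusted p = 0.0565).

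The other enzymes of the mevalonate pathway did not share this difference. ACAT2, the acetyl-CoA acetyltransferase that supplies acetoacetyl-CoA, differed by -0.10, with a 95% interval from -0.55 to 0.36. The 3 probe sets of MVK, mevalonate kinase, differed by 0.12 to 0.22, and PMVK, the kinase after it, by -0.06. MVD, which decarboxylates mevalonate pyrophosphate, differed by 0.15 and FDPS, which makes farnesyl pyrophosphate, by 0.07 (interval -0.24 to 0.39). None of these probe sets was called, and in each of them the values of the lines overlapped. IDI1, the isomerase of isopentenyl pyrophosphate, was the exception in overlap. Its 2 probe sets read 10.86, 10.85 and 11.21 and 10.59, 10.37 and 10.87 in SUM44, and 10.75, 10.33 and 10.76 and 10.27, 9.92 and 10.36 in LCCTam. All LCCTam values were lower, but the differences of -0.36 and -0.43 did not pass (adjusted p = 0.236 and 0.18), and both probe sets carry the suffix _x_at, which marks possible cross-hybridization. Over the 11 probe sets of this stretch, 0 rose and 1 fell, with a median difference of -0.06. The share called was 9.09%, against 7.37% of all probe sets.

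SQLE and LSS turn squalene into lanosterol. SQLE, squalene epoxidase, a rate-limiting enzyme of the later pathway, had 3 probe sets. The brightest read 10.03, 10.02 and 10.22 in SUM44 and 9.82, 9.67 and 9.64 in LCCTam, a difference of -0.38 (limma adjusted p = 0.0626). The other probe sets differed by -0.41 and -0.78. In each of the 3 the LCCTam values lay below the SUM44 values, as in 16.6% of all probe sets, and 0 were called. The dimmest of them was called without the passage 10 array (-0.50, limma adjusted p = 0.0257), but with no other single array left out. LSS, lanosterol synthase, differed by -0.12 in its brightest probe set (interval -0.60 to 0.36) and by -0.36 and 0.06 in the others, and its values overlapped in each.

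After lanosterol, MSMO1 and HSD17B7 fell, both enzymes of the steps that strip methyl groups from the sterol nucleus. MSMO1, a methylsterol monooxygenase, read 10.23, 10.14 and 10.36 in SUM44 and 9.75, 9.58 and 9.62 in LCCTam. The groups did not overlap and the spread within each was small. LCCTam differed by -0.60 (SE 0.10, limma adjusted p = 0.015), which is 1.51-fold lower; the adjusted p was 0.0529 without SUM44 passage 75 and 0.0552 without LCCTam passage 9. HSD17B7, the ketosteroid reductase of these steps, read 8.78, 8.85 and 8.80 in SUM44 and 8.51, 8.40 and 8.19 in LCCTam. Its difference of -0.45 was just past the threshold (adjusted p = 0.0473), and its probe set carries the suffix _x_at. It held without the passage 10 array (-0.36, adjusted p = 0.0373) and was lost when any other array was left out, at adjusted p-values up to 0.181. NSDHL, the dehydrogenase that works with both, had overlapping values and differences of 0.04 and 0.15.

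The remaining late genes did not pass, though several were lower on all LCCTam arrays. TM7SF2, a sterol reductase, read 7.75, 7.80 and 8.00 in SUM44 and 7.48, 7.19 and 6.76 in LCCTam (difference -0.71, limma adjusted p = 0.0643). It was lowest on the passage 10 array and was called without it (-0.52, adjusted p = 0.0467), but with no other single array left out. SC5D, the lathosterol desaturase, read 9.45, 9.39 and 9.41 in SUM44 and 9.14, 9.08 and 9.13 in LCCTam, a small and even difference of -0.30 (adjusted p = 0.0598). Its other probe set differed by -0.22, also without overlap (adjusted p = 0.206). DHCR7, the enzyme of the last step of one route to cholesterol, differed by -0.48 and -0.43 in its 2 probe sets, with the lowest value of each on the passage 10 array. EBP, the sterol isomerase that together with DHCR7 forms the microsomal binding site for antiestrogens such as tamoxifen, had overlapping values in its 3 probe sets, with differences of 0.01, 0.13 and -0.19. Of the 12 probe sets from lanosterol onward, 0 rose, 2 fell and 6 had no overlap with the LCCTam values lower. Among all probe sets 5.65% were called lower, and 16.6% were lower without overlap.

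The regulators of the sterol branch were not called. SREBF2, which encodes SREBP-2, read 8.78, 8.38 and 8.51 in SUM44 and 8.63, 8.75 and 8.35 in LCCTam in its brighter probe set. These values interleave, and the difference was 0.02 (interval -0.32 to 0.36, limma adjusted p = 0.951). The other SREBF2 probe set differed by -0.17 (adjusted p = 0.653). INSIG1, itself a target of SREBP, read 9.69, 9.87 and 10.61 in SUM44 and 10.00, 9.72 and 9.67 in LCCTam in its brightest probe set. Only SUM44 passage 76 stood above the rest, and the difference was -0.26 (adjusted p = 0.563). Among the 18 sterol genes, all probe sets were lower in 11 genes, all were higher in 4 (MVK, MVD, FDPS and NSDHL), and the signs were mixed in 3. The 95% interval lay within 2-fold in either direction for 30 of the 34 probe sets.

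**Figure D2:**
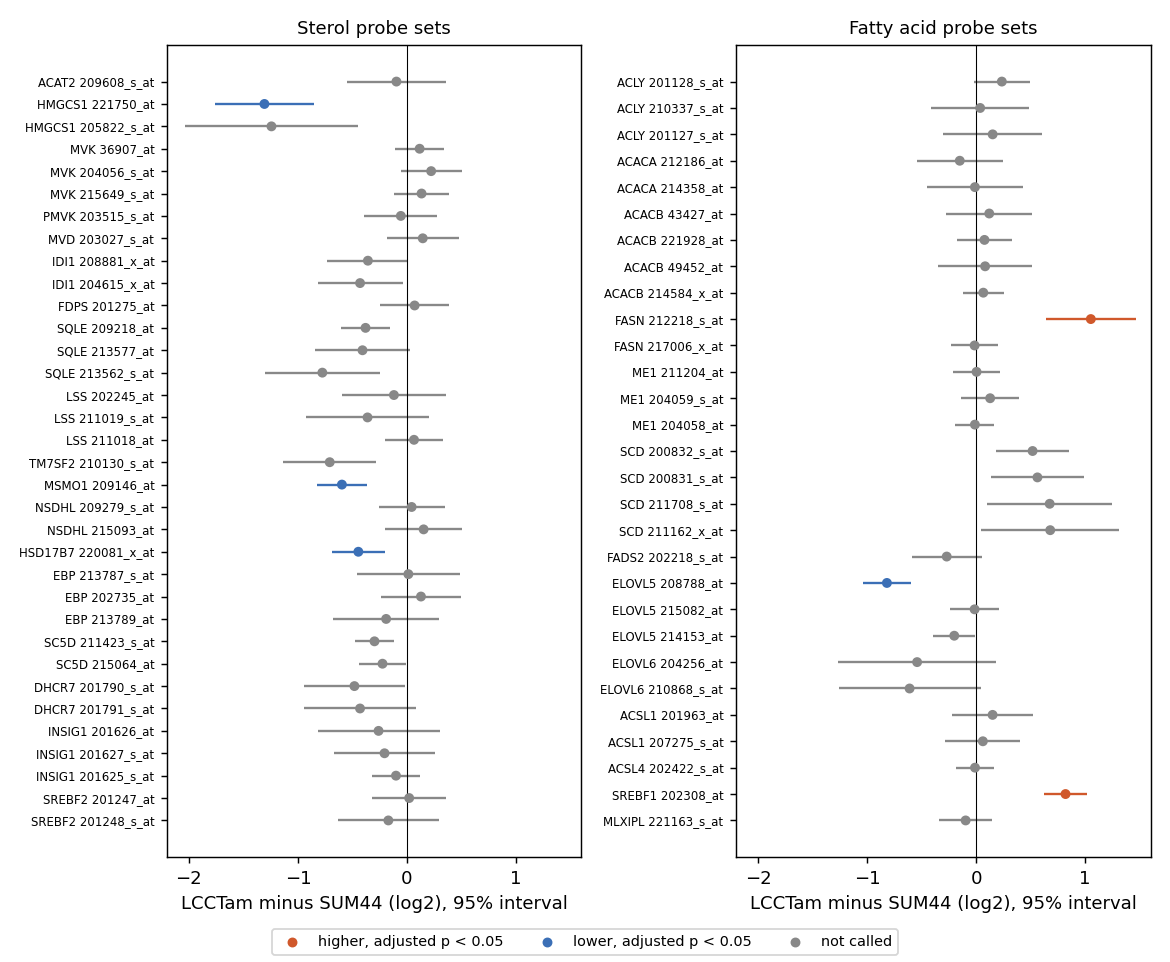
Difference between LCCTam and SUM44 (log2, horizontal axis) with its 95% limma interval for 34 sterol probe sets (left) and 29 fatty acid probe sets (right) in pathway order, n = 3 arrays per line. Orange marks probe sets called higher, blue those called lower and grey those not called; the sterol differences run from -1.31 to 0.22 and the fatty acid differences from -0.82 to 1.05.

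In the fatty acid branch SREBF1 had the smallest p-value of the list. SREBF1 encodes SREBP-1, the factor that drives genes of fatty acid synthesis. It read 8.84, 8.76 and 8.86 in SUM44 and 9.67, 9.69 and 9.55 in LCCTam. The values were tight in both lines and far apart, at 8.82 ± 0.05 and 9.64 ± 0.08 (SD, n = 3 each). LCCTam stood higher by 0.82 (SE 0.08, limma adjusted p = 0.00306), which is 1.77-fold. It stayed called with any single array left out, at differences of 0.79 to 0.86. The files do not say which SREBF1 transcript the probe set reads. MLXIPL, which encodes the carbohydrate-responsive factor ChREBP, read 6.22, 6.20 and 6.32 in SUM44 and 6.19, 6.29 and 5.98 in LCCTam, and the difference of -0.10 was not called (adjusted p = 0.63).

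FASN, the fatty acid synthase that assembles palmitate, rose. Its bright probe set read 10.06, 10.12 and 10.30 in SUM44 and 11.58, 11.17 and 10.89 in LCCTam. The lowest LCCTam value, at passage 10, still lay above the highest SUM44 value. LCCTam stood higher by 1.05 (SE 0.18, limma adjusted p = 0.0169), which is 2.07-fold. Without the passage 10 array it was 1.21 (adjusted p = 0.00678), without SUM44 passage 75 it was 1.03 and not called (adjusted p = 0.0891), and without LCCTam passage 9 it was 1.07 (adjusted p = 0.0557). A second FASN probe set, with the suffix _x_at, read 5.86, 5.74 and 5.76 in SUM44 and 5.66, 5.77 and 5.89 in LCCTam and showed no such difference (-0.01, interval -0.23 to 0.21).

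The enzymes that feed FASN showed no comparable difference. ACLY, which splits citrate to supply acetyl-CoA, differed by 0.24 in its brightest probe set (interval -0.02 to 0.49) and by 0.04 and 0.15 in the others. ACACA, the acetyl-CoA carboxylase of lipid synthesis, read 8.92, 9.10 and 9.25 in SUM44 and 9.18, 9.04 and 8.60 in LCCTam. Its values overlapped, and the difference was -0.15 (limma adjusted p = 0.645). ACACB, the carboxylase that regulates fatty acid oxidation, had 4 probe sets with differences of 0.07 to 0.12, all with overlapping values. ME1, the malic enzyme that yields NADPH, was dim, with its 3 probe sets between percentiles 1.15 and 14.6 of all probe sets. Of the 14 probe sets from ACLY to FASN and ME1, 1 rose and 0 fell, 7.14% against 7.37% of all probe sets.

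Among the desaturases, SCD was higher in LCCTam in each of its probe sets but did not pass with all arrays. SCD is the stearoyl-CoA desaturase that makes monounsaturated fatty acids. The brightest probe set read 11.60, 11.90 and 11.92 in SUM44 and 12.57, 12.24 and 12.16 in LCCTam, without overlap. The difference was 0.52 (interval 0.18 to 0.86, limma adjusted p = 0.0785). The other 3 probe sets differed by 0.56, 0.68 and 0.68, and in 2 of these the passage 10 value fell among the SUM44 values. Without the passage 10 array all 4 were called, at differences of 0.60, 0.76, 0.97 and 0.94 and adjusted p-values of 0.0493, 0.00927, 0.0047 and 0.041. FADS2, the desaturase of polyunsaturated fatty acids, differed by -0.27 with overlapping values (adjusted p = 0.3).

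Among the elongases ELOVL5 fell. ELOVL5, which lengthens polyunsaturated fatty acids, read 11.22, 11.27 and 11.13 in SUM44 and 10.27, 10.40 and 10.50 in LCCTam in its brightest probe set. The groups lay well apart, and LCCTam differed by -0.82 (SE 0.09, limma adjusted p = 0.00458), which is 1.76-fold lower. It stayed called with any single array left out, at -0.87 to -0.76. The other 2 ELOVL5 probe sets were dimmer and not called; 1 read 5.08, 5.11 and 4.99 in SUM44 and 4.90, 4.79 and 4.89 in LCCTam, a difference of -0.20, and the other read 5.90, 5.66 and 5.81 against 5.75, 5.86 and 5.72, with no such difference (-0.01). ELOVL6, which lengthens palmitate, varied more within SUM44 than between the lines. Its brighter probe set read 6.09, 6.90 and 7.28 in SUM44 and 6.23, 5.89 and 6.53 in LCCTam, so that the SUM44 sample of passage 74 lay among the LCCTam values (difference -0.54, adjusted p = 0.353). The other probe set differed by -0.61 and also overlapped (adjusted p = 0.251). ELOVL2, an elongase of polyunsaturated fatty acids that is not on the member list, had the largest difference of the lipid genes read here. Its brighter probe set read 8.04, 8.57 and 8.78 in SUM44 and 5.81, 5.81 and 6.26 in LCCTam. The difference was -2.50 (adjusted p = 0.00181), the other probe set differed by -1.79 (adjusted p = 0.00771), and both stayed called with any single array left out.

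The acyl-CoA synthetases, which activate fatty acids for use, were not called. ACSL1 differed by 0.15 and 0.06 in its 2 probe sets (adjusted p = 0.612 and 0.836), with overlapping values and an interval of -0.22 to 0.52 for the first. ACSL4 read 3.39 to 3.48 on all arrays, below percentile 1 of the probe sets, so that a difference was not detectable at this level. Over the fatty acid branch all probe sets were higher in 5 genes, lower in 6 and of mixed sign in 2.

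The promoters of the genes that the results turn on are shown for the elements at which SREBP and its partners bind. Also marked is the half-site of estrogen-related receptors, which is not such an element. The windows are the 250 bases before the annotated start site farthest upstream, from RefSeq (GRCh38.p14), where 33 of the 37 listed genes have an entry; FASN has none. Capitals mark matches, on either strand, to a sterol regulatory element (TCACNCCAC), a CCAAT box (CCAAT), at which the SREBP partner NF-Y binds, an E-box (CACGTG) or the half-site of estrogen-related receptors (TCAAGGTCA). HMGCS1 (chr5:43313413-43313662, minus strand) and MSMO1 (chr4:165327419-165327668, plus strand) stand for the sterol genes that fell, SREBF2 (chr22:41832855-41833104, plus strand) for the sterol regulator that was not called, SREBF1 (chr17:17836987-17837236, minus strand) and SCD (chr10:100346983-100347232, plus strand) for the fatty acid genes with higher values, and ELOVL5 (chr6:53348951-53349200, minus strand) for the fatty acid gene that fell.
HMGCS1: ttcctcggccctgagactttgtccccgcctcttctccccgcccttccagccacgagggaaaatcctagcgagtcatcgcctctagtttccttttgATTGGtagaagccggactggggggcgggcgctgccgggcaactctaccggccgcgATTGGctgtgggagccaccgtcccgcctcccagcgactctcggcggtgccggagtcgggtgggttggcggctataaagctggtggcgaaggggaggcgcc
MSMO1: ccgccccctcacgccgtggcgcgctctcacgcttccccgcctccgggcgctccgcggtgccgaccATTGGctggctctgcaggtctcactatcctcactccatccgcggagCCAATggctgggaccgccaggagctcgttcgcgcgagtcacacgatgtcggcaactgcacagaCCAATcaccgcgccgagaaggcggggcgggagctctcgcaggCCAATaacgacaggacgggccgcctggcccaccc
SREBF2: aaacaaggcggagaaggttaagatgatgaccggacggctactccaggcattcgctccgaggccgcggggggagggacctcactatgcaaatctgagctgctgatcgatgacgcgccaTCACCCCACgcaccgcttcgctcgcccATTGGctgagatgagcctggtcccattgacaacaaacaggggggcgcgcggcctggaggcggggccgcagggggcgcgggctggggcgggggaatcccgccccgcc
SREBF1: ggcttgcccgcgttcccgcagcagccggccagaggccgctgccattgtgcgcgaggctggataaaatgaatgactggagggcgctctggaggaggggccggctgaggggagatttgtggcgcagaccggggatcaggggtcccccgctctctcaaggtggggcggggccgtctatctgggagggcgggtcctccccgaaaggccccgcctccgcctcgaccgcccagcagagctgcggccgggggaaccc
SCD: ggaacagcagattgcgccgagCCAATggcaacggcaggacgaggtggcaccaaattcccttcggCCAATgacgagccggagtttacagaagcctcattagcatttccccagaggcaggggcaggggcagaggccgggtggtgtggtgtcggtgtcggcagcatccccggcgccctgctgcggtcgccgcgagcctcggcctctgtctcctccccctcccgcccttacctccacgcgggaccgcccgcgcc
ELOVL5: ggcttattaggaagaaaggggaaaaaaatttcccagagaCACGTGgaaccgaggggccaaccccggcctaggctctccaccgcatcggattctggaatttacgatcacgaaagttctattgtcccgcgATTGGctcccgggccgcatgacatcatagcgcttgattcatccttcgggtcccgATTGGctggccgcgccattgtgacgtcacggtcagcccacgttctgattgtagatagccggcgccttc

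The capitals in HMGCS1 are 2 CCAAT boxes on the opposite strand (ATTGG), and those in MSMO1 are 4 CCAAT boxes in both orientations. SREBF2 holds 1 sterol regulatory element and 1 CCAAT box, SCD 2 CCAAT boxes and ELOVL5 2 CCAAT boxes and 1 E-box, while SREBF1 has 0 matches in this window. Only 1 window is given for SREBF1, and any promoter of the gene outside it was not read. In any of a gene's windows, a CCAAT box occurred in 15 of 17 sterol genes (88.2%) and 9 of 16 fatty acid genes (56.2%), against 37% of all 27305 genes in the table. The exact sterol regulatory element occurred in 1 gene of each branch, SREBF2 and ACSL1, against 1.09% of all genes, and the E-box in 2 sterol genes and 1 fatty acid gene, against 7.73%. The half-site of estrogen-related receptors occurred in 0 of the 33 genes and in 0.388% of all genes. Over all 35116 windows the shares were 32% for the CCAAT box, 0.883% for the sterol regulatory element, 6.34% for the E-box and 0.319% for the half-site. Several genes have more than 1 window, and a match describes letters only. CCAAT boxes thus stood both in genes that fell and in SCD, where values were higher.

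The sterol genes varied among samples of a line as well as between lines. SUM44 passage 76 gave the highest of the 3 SUM44 values for 16 of 34 sterol probe sets (47.1%), against 32.2% of all probe sets. LCCTam passage 10 gave the lowest LCCTam value for 27 of 34 (79.4%), against 48.1% of all. Measured from the SUM44 mean of each probe set, the median sterol probe set stood at -0.05 and -0.08 on the LCCTam arrays of passages 8 and 9 and at -0.30 on that of passage 10. For the fatty acid probe sets the same medians were 0.09, 0.07 and -0.05, and for all probe sets they were 0.03, 0.02 and -0.04. The sterol median of LCCTam therefore rests mainly on the array with the strong 3' bias of actin, whose part in it was not tested, while HMGCS1 was as far below SUM44 on the other LCCTam arrays (difference -1.39 without passage 10, adjusted p = 0.014).

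**Figure D3:**
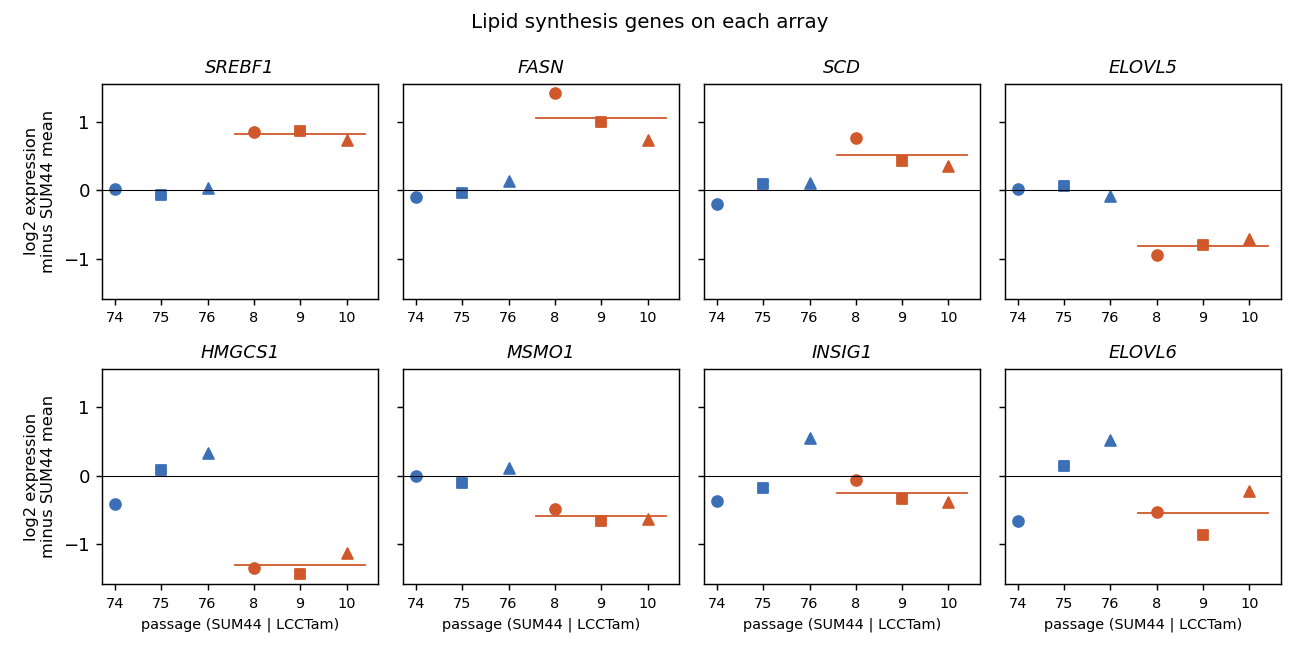
Log2 expression of 8 lipid synthesis genes (brightest or called probe set) on each array, minus the SUM44 mean (vertical axis), by passage of SUM44 (blue) and LCCTam (orange); the orange line is the LCCTam mean difference. SREBF1 and ELOVL5 are tight in both lines (differences 0.82 and -0.82), while HMGCS1, INSIG1 and ELOVL6 are spread over the SUM44 samples.

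Related lipid genes outside the list gave few calls. Of 55 measured genes in 5 further lists (89 probe sets), 2 genes rose and 2 fell. Called probe sets made up 5.62% of the 89, against 7.37% of all. Of 5 other sterol synthesis genes, 0 of 10 probe sets were called in limma, with 1 higher and 1 lower at an unadjusted p under 0.05. Of 15 genes of sterol sensing, uptake, esterification and efflux, 0 rose and 1 fell. It was INSIG2, a relative of INSIG1, which read 9.69, 9.15 and 8.62 in SUM44 and 7.69, 7.83 and 7.67 in LCCTam (difference -1.43, adjusted p = 0.0194). Its call was lost without SUM44 passage 75 or either of LCCTam passages 8 and 9 (adjusted p = 0.0938, 0.0837 and 0.0589). Of 14 genes of fatty acid supply, elongation and desaturation, 0 rose and 1 fell, which was ELOVL2 as described above.

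In glycerolipid synthesis and storage 1 of 13 genes rose and 0 fell, with 4.76% of the probe sets called against 7.37% of all. PLIN3, a coat protein of lipid droplets, read 8.85, 8.92 and 8.97 in SUM44 and 9.63, 9.68 and 9.30 in LCCTam (difference 0.62, limma adjusted p = 0.0263). It was called without the passage 10 array and with no other array left out. Among 8 genes of the AMP-activated kinase, which phosphorylates the acetyl-CoA carboxylases, and of its upstream kinases, 1 rose and 0 fell. The share of probe sets called was 6.67%, against 7.37% of all. The called gene was STK11, the gene of the upstream kinase LKB1. It read 6.59, 6.56 and 6.66 in SUM44 and 7.01, 6.93 and 7.29 in LCCTam. Its difference was 0.48, close to the threshold (adjusted p = 0.0495, probe set suffix _x_at), and 0.30 in its other probe set (adjusted p = 0.0968). It too was called with no single array left out but that of passage 10. The medians of the 5 lists lay between -0.03 and 0.04, near the 0.013 of all probe sets.

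**Figure D4:**
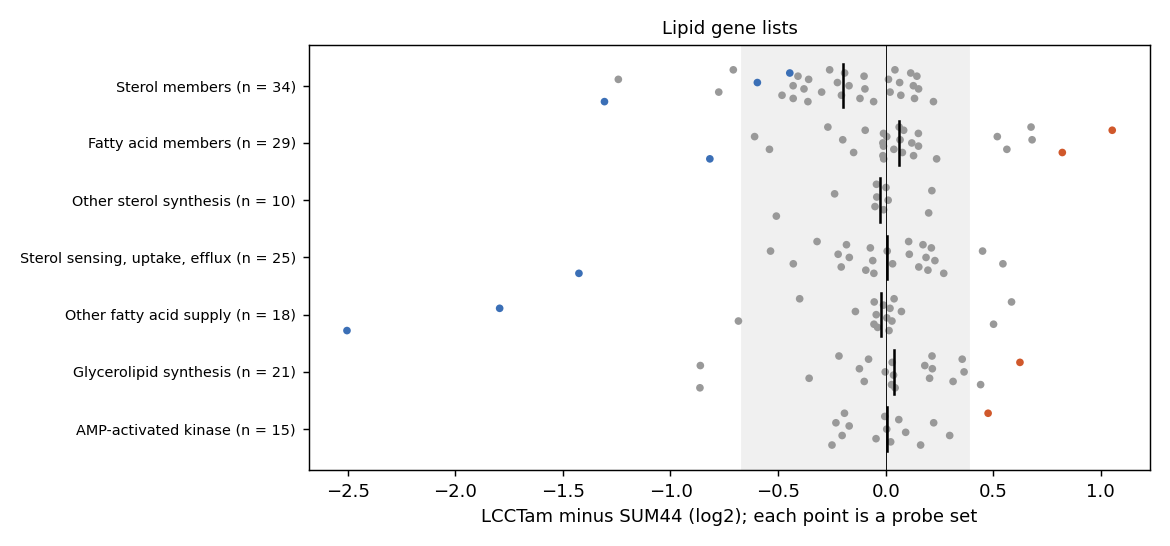
Difference between LCCTam and SUM44 (log2, horizontal axis) of each probe set of the 2 branches and of 5 further lipid gene lists, with the number of probe sets in each. Orange points were called higher and blue points lower, black bars are medians, and the grey band spans the 5th to 95th percentiles of all 19065 probe sets (-0.67 to 0.39); ELOVL2 gives the 2 points farthest to the left.

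The submitters' design text selects probe sets on a fold change of 2 or more, an unadjusted p below 0.05 and an intensity of 10 or more. Applied with limma's p and the means of both lines, this took 3 of the 63 member probe sets. They were both probe sets of HMGCS1, lower, and that of FASN, higher, where it took 2.23% of all probe sets, 0.488% as higher and 1.74% as lower. SREBF1, ELOVL5, MSMO1 and HSD17B7 passed the adjusted threshold with changes under 2-fold.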

How the data were processed

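Total RNA of the 6 samples was biotin-labelled by the one-cycle protocol of the array's maker, per the labels' protocols. The authors deposited log2 RMA values (Bioconductor), per the submitters' processing notes; RMA can compress differences of dim probe sets, and the deposited distributions were not equal across arrays. No source used here gives its version or chip definition, and the values hold no detection calls. The number of arrays limits the precision.

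Probe set symbols were taken from GEO's platform annotation. Of 22283 probe sets, 68 controls, 1043 with several symbols and 2107 that the annotation does not list were left out. The titles gave each sample's line and passage, and no samples were paired. LCCTam was compared with SUM44 in limma 3.58.1 (lmFit and eBayes under R 4.3.3, all levels kept, prior degrees of freedom 3.01), tested on simulated data. The members and lists were chosen with earlier results of these data known. Values on every array were given for called members, for the brightest probe sets of SREBF1, SREBF2, INSIG1, MLXIPL, ACACA, SCD and SQLE, for all probe sets of genes whose probe sets differed in call, and for called genes of the further lists (at most 4 each); other members shown were chosen after their values were seen. Alternatives changed the probe sets fitted, the normalization, the filter, the variance model, the array weights, the arrays and the call rule. Promoter windows came from RefSeq.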

Additional observations from a re-analysis of the deposited data

How the results depend on the processing

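The differences of SREBF1 and ELOVL5 (brightest probe sets) kept their direction and an adjusted p under 0.05 in limma in 14 of 14 alternative fits, from 0.79 to 0.91 and from -0.94 to -0.76; so did both ELOVL2 probe sets where they were fitted. HMGCS1 and MSMO1 each kept their call in 12 of 14, FASN in 11 of 13, HSD17B7 in 6 of 13, INSIG2 in 11 of 14, PLIN3 in 8 of 13 and STK11 in 4 of 12. Of all alternative values of single probe sets, 0 reversed a call, 35 lost one and 32 gained one. With 1 array left out at a time, sterol probe sets called lower numbered 0 to 6 (3 with all arrays; 0 without SUM44 passage 75, 1 without LCCTam passage 8 or 9, 6 without passage 10, where 2%, 2.5%, 3.43% and 11.7% of all probe sets were called), fatty acid probe sets called higher 1 to 6 (2 with all arrays), and further-list probe sets 0 to 7 higher and 2 to 6 lower (2 and 3 with all arrays). The sterol median then ran from -0.27 to -0.060 and the fatty acid median from 0.0017 to 0.061. Array weights, which gave LCCTam passage 8 a weight of 5.40 and passage 10 one of 0.198, called 32.6% of all probe sets; 5 sterol probe sets were then higher and 9 lower (median -0.046), 7 fatty acid probe sets higher and 4 lower, and 23 further ones higher and 11 lower. With quantile normalization 4 fatty acid and 5 further probe sets were higher, where 3.55% of all probe sets were higher. Without the dimmest 25% of probe sets 5 sterol probe sets were lower, where 7.78% of all probe sets fitted were lower. Without the _x_at and _s_at probe sets 1 fatty acid and 0 further probe sets were higher, where 1.7% of all were. The fatty acid median was then -0.010. With 1 probe set per gene that median was 0.0050 and 1 further probe set was higher, where 2.09% of all were. Likewise 1 was higher with all probe sets but controls and 1 with an intensity trend, where 1.56% of all were higher in each. The design text's selection took 1 fatty acid probe set higher and 0 lower, and 0 further ones higher. Of all probe sets it took 0.488% as higher and 1.74% as lower. Of all called probe sets 76.7% were lower, against 57% with quantile normalization, 52% with array weights and 60.8% without LCCTam passage 10. No paired analysis was possible because the lines share no passage or other replicate number in the labels. With the background unknown, differences of dim probe sets such as ME1 and ACSL4 could not be judged.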
